A study of Mus musculus with 6 samples.

Results

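Of the 22188 peaks in the deposited table of all peaks, 15 carried the name of Klf11, Klf12, Klf15, Klf16, Sp1, Sp2, Sp3 or Sp4, the KLF and Sp genes described here. Members were chosen by gene name alone, as the gene that the authors assigned to each peak, and 7 of the 8 genes had at least 1 peak. Klf15 had none. The merged list of KLF3 contributed 11 of the 15 peaks, that of ΔDL 8 and that of DBD 1. By the authors' annotation 4 lay in promoters, from 1 kb upstream to 100 bp downstream of a transcription start site (TSS), 6 in introns and 5 between genes. The question asked of them was whether occupancy by KLF3 at these genes changed when a part of the protein outside its zinc fingers was mutated or removed.

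The cells were Klf3−/− murine embryonic fibroblasts (MEFs), labelled as C57BL/6, so that every group lacked endogenous KLF3. They were rescued by retrovirus with 1 of 3 V5-tagged constructs. These were full-length KLF3, ΔDL, in which the contact motif for the corepressor CtBP is mutated, and DBD, which keeps the zinc fingers and a putative nuclear localization signal without the rest of the protein. Each line was a stable clone selected with puromycin, and ChIP with an anti-V5 antibody was sequenced in 2 replicates per construct with paired inputs. A clone and a construct cannot be told apart in this design, and the 2 replicates of a construct measure the spread within 1 clonal line. The files hold no RNA levels, so the identity of the cells and the levels of the constructs were not checked here.

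KLF and Sp proteins share a C-terminal zinc finger domain that recognises GC boxes and the related CACCC boxes, and several of them bind the same sites in competition. Sp proteins are mostly activators, whereas KLF3 and its close relatives KLF8 and KLF12 repress through CtBP, and KLF11 and KLF16 recruit the corepressor Sin3A. Members of the family often bind and regulate the genes of other members.

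The core searched for was CCGCCC, the version of it with A in the middle, CCACCC, and the versions that begin with A, which are ACGCCC for the former and ACACCC for the latter. It was searched on either strand in the central 100 bp of each peak. CCGCCC is also the reverse complement of the GC box GGGCGG, so a match to it names no single factor. A core was present in 9 of the 15 peaks (60%) and in 40.2% of all peaks in the table. The 9 stretches that follow show the core nearest to the centre of each of these peaks, with 12 bases on both sides. They are given 5′ to 3′ on the strand named, from mm9, with the core in capitals.
Klf11 promoter, chr12:25336175-25336204 (+): tgcccgcgcgccCCGCCCagggccgctccc
Klf11 intron 1, chr12:25336609-25336638 (+): tccgctgcggccCCGCCCggcgcggctatt
Klf16 intron 1, chr10:80039247-80039276 (+): tggccaccagggCCGCCCtccgcgcgccgc
Sp1 promoter, chr15:102236477-102236506 (+): cgtcatctcatcCCGCCCaccaccacttcc
Sp1 intron 1, chr15:102237317-102237346 (+): ctatccccgaaaCCGCCCcttccttctttg
Sp2 intron 1, chr11:96838677-96838706 (+): agcgccgccctcCCGCCCggggctccgagg
Sp2 promoter, chr11:96839022-96839051 (+): cggagcccgccaCCGCCCgagcgacggcag
Sp4 intron 1, chr12:119539671-119539700 (−): ggtacgtattctCCACCCccctcggtctcc
Sp4 promoter, chr12:119540593-119540622 (+): accgccttcctcCCGCCCccgaacgcggcc

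In 8 of these 9 peaks the core shown was CCGCCC, and in the Sp4 intron peak it was CCACCC. The word CCGCCC was in 19.7% of all peaks and in 63.7% of the promoter peaks listed for KLF3, so promoter peaks in general carried it often. Among the 11 peaks listed for KLF3, 9 held a core (81.8%), compared with 57.6% of all peaks listed for KLF3 and 84.3% of the promoter peaks among them. The exceptions were the Sp3 peak and a Klf12 peak at −197227 bp. None of the 5 Klf12 peaks held a core in the central 100 bp, and 7.05% of the intergenic peaks listed for ΔDL and not for KLF3 did. Within the whole 400 bp, 2 of the 5 Klf12 peaks had an ACACCC away from the centre. They are shown for contrast with the stretches above.
Klf12 at −197227 bp, chr14:100746394-100746423 (+): atcaagtgcataACACCCcaaggtgtgacc
Klf12 at −432998 bp, chr14:100981906-100981935 (+): atgagtatagaaACACCCaaatagaaaatc

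The height of a peak is the number of tags that the authors counted in 400 bp, with both replicates combined, per 100 M tags. Because the replicates were combined, a height has no replicate error. Intervals given on heights and on their differences are exact 95% Poisson or conditional binomial intervals, and they cover counting error only. The scores in the replicate lists are tags in the called peak per 100 M, and they give the spread between replicates where both lists called a peak. Between 1.77 and 18.1 M tags stood behind the scores of a list, and the shallowest was ΔDL replicate 1, in which a single tag was worth 56.6 and no called peak scored below 226.6. In the combined heights a KLF3 tag counted as 4.29 normalized tags, a ΔDL tag as 8.45 and a DBD tag as 6.23. For replicates 1 and 2, the lists rested on 5.46 and 18.1 M tags in KLF3 and on 1.77 and 10.2 M in ΔDL. The combined heights of these constructs, and the intervals on them, therefore reflect mostly replicate 2. The DBD lists rested on 7.81 and 8.38 M tags. Uniform coverage of the genome would give 15.1 normalized tags in 400 bp.

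The 15 peaks fell into 2 kinds of location. Near the start sites of Klf11, Klf16, Sp1, Sp2 and Sp4, 9 peaks lay within 1 kb of a TSS and had KLF3 heights between 254 and 1342. The 5 peaks assigned to Klf12 lay 49659 bp or more from its TSS and had KLF3 heights between 39.9 and 127. A single Sp3 peak lay far downstream of the start and had a KLF3 height of 505. The median KLF3 height of the 11 peaks listed for KLF3 was 505, compared with 241 over all 14115 peaks listed for KLF3 and 324 over the promoter peaks among them.

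**Figure D1:**
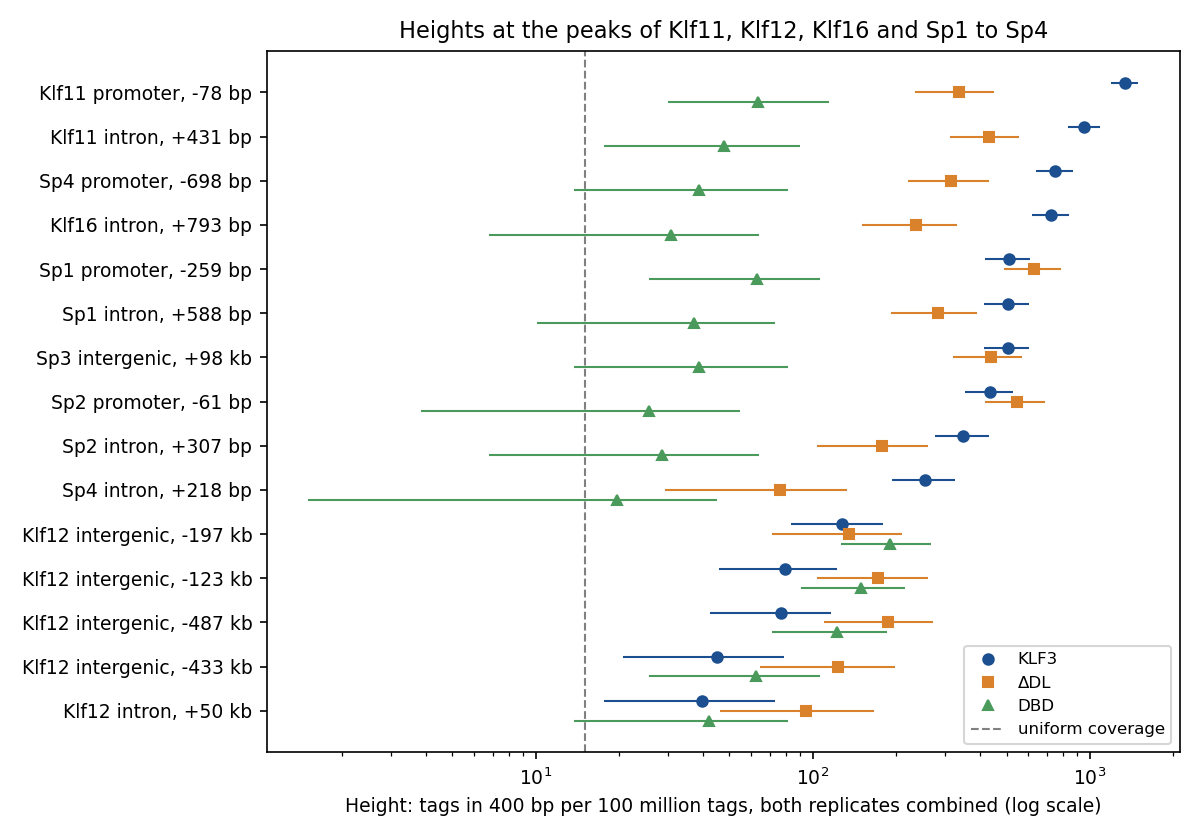
Heights of the 15 peaks for KLF3 (circles), ΔDL (squares) and DBD (triangles), as tags in 400 bp per 100 M tags with both replicates combined, on a log axis, with exact 95% Poisson intervals from the tags counted as horizontal lines. The dashed line marks uniform coverage at 15.1 normalized tags. KLF3 is highest at the Klf11 promoter, at 1342, and the 5 Klf12 peaks at the bottom have KLF3 heights of at most 127.

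Klf11 encodes a repressor induced by TGFβ that recruits Sin3A. Its promoter held the highest KLF3 peak of the group, at chr12:25335958-25336358 and centred −78 bp from the TSS. Its KLF3 height was 1342 normalized tags, from 312 tags, which ranked 43 of all 22188 peaks. The KLF3 replicates called it with scores of 1228 and 741, from 67 and 134 tags. For ΔDL the height was 338 and the scores were 396.5 and 147, from 7 and 15 tags. Both KLF3 scores were above both ΔDL scores, so the replicates of the constructs did not overlap. The difference of log2 heights, ΔDL minus KLF3, was −1.99, with a counting interval from −2.54 to −1.54. The DBD height was 63.6, from 10 tags, a difference from KLF3 of −4.40 (interval −5.50 to −3.53). DBD replicate 1 called the peak with a score of 102 from 8 tags, and DBD replicate 2 did not call it.

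A further Klf11 peak lay in intron 1 of the RefSeq transcript, at chr12:25336467-25336867 and +431 bp from the TSS. GENCODE annotates an untranslated exon of Klf11 under both Klf11 peaks. The intron 1 peak had a KLF3 height of 955, which ranked 211. The KLF3 scores were 751 and 509 and the ΔDL scores 283 and 274, so here too every KLF3 score was above every ΔDL score. The ΔDL height of 431 differed from the KLF3 height by −1.15 (interval −1.64 to −0.72). The DBD height was 47.8, a difference of −4.32 (interval −5.78 to −3.38), and neither DBD replicate called the peak.

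By the Euclidean distance over the 3 log2 heights, the promoter peaks of other genes most like the Klf11 promoter peak were those of Rc3h1 (distance 0.26), Atl2 (0.31), Adss (0.38), Uck2 (0.42) and Gatad2a (0.44). Their KLF3 heights lay between 1082 and 1418 and their ΔDL heights between 271 and 416. This is a likeness of combined heights over 3 constructs and says nothing of a shared function.

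Klf16, another KLF that recruits Sin3A, had 1 peak in the table, in intron 1 at chr10:80039048-80039448, +793 bp from the TSS. Its KLF3 height was 724, rank 561, and its KLF3 scores were 421.5 and 415, from 23 and 75 tags. No ΔDL or DBD replicate called it. The ΔDL height was 236, from 27 tags, a difference from KLF3 of −1.62 (interval −2.30 to −1.07). The DBD height was 30.7, from 4 tags, a difference of −4.56 (interval −6.74 to −3.47).

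The Klf16 promoter had no peak in the table although both KLF3 replicates called one there. KLF3 replicate 1 called a peak at −432 bp with a score of 916 from 50 tags, rank 184 of the 26772 peaks in its list. KLF3 replicate 2 called one at −163 bp with a score of 791 from 143 tags, rank 72 of 23872. Both scores were higher than those of the Klf16 intron peak. The called intervals do not overlap, and a merged list keeps peaks found in both replicates, so neither call entered the table. ΔDL was called with 5 tags at −285 bp in replicate 1 and with 29 tags at −444 bp in replicate 2, both with a score of 283, and DBD was not called. The stretches around the core nearest to the centre of each KLF3 call are shown for comparison with the peaks of the table.
Klf16 promoter, KLF3 replicate 1, chr10:80040482-80040511 (+): gctttgagagttACGCCCacccccgcgaca
Klf16 promoter, KLF3 replicate 2, chr10:80040190-80040219 (+): ggctcagtagccACGCCCtctccccaccgc

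Sp1 encodes the widely expressed activator that gave the Sp family its name. Its promoter peak lay at chr15:102236288-102236688, −259 bp from the TSS, with a height of 508 in KLF3 cells, 630 in ΔDL cells and 62.7 in DBD cells. The KLF3 scores were 220 and 249, from 12 and 45 tags, and the ΔDL scores were 510 and 342, from 9 and 35 tags. Both ΔDL scores were above both KLF3 scores. The KLF3 score of 220 lay below 226.6, the lowest score in the ΔDL replicate 1 list, so any call in that list had to exceed it. The order seen at Klf11 could therefore not have occurred here. The difference of combined log2 heights was 0.31, with a counting interval from −0.13 to 0.74 that includes 0, and became −0.75 when the constructs were set to equal medians at the 2334 peaks listed for all 3. The DBD difference was −3.02 (interval −4.34 to −2.20), the smallest fall among the 9 peaks near start sites.

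The second Sp1 peak, in intron 1 at chr15:102237135-102237535 and +588 bp from the TSS, had a KLF3 height of 505. Its KLF3 scores were 366.5 and 288. GENCODE places a start site of Sp1 149 bp from the centre of this peak and untranslated exon sequence under it. ΔDL was called in replicate 2 alone, with a score of 195, and had a height of 282, a difference of −0.84 (interval −1.45 to −0.28). Within Sp1, the ΔDL height was therefore above the KLF3 height at the promoter peak and below it at the intron peak, while both peaks had nearly the same KLF3 height. The DBD height at the intron peak was 37.3, a difference of −3.76 (interval −5.66 to −2.74).

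Sp2, a widely expressed member of the family needed for embryonic development, had a pair of peaks with overlapping intervals around its start. The promoter peak lay at chr11:96838863-96839263, −61 bp from the TSS, and had KLF3 scores of 293 and 216 from 16 and 39 tags. The ΔDL replicates called it with scores of 340 and 283, from 6 and 29 tags, which overlap the range of the KLF3 scores. It was not in the ΔDL list of the table, since the intervals of the ΔDL replicates, at −91 to 41 bp and −227 to −97 bp, do not overlap each other. The heights were 437 for KLF3 and 545 for ΔDL, a difference of 0.32 (interval −0.15 to 0.79), or −0.74 after scaling. DBD had 3 tags there, a height of 25.6 and a difference of −4.09 (interval −6.83 to −2.95).

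The Sp2 intron 1 peak, at chr11:96838495-96838895 and +307 bp, had a KLF3 height of 350 and KLF3 scores of 256.5 and 216. No ΔDL or DBD replicate called it. Its ΔDL height was 177, a difference of −0.98 (interval −1.82 to −0.32), and its DBD height was 28.6, a difference of −3.61 (interval −5.71 to −2.39). As at Sp1, and at Sp4 below, the intron peak had the lower ΔDL height of the pair. At Klf11 the promoter peak had the lower one, 338 compared with 431.

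Sp4 encodes a member best known from neurons. Its promoter peak, at chr12:119540411-119540811 and −698 bp from the TSS, had a KLF3 height of 750, rank 495. The KLF3 scores were 440 and 481, from 24 and 87 tags, and the ΔDL scores 283 and 195, from 5 and 20 tags. All KLF3 scores at this peak were above all ΔDL scores. The ΔDL height was 315, a difference of −1.25 (interval −1.81 to −0.74), and the DBD height was 38.9, a difference of −4.27 (interval −5.78 to −3.17). The other Sp4 peak, at chr12:119539495-119539895 and +218 bp, was the lowest KLF3 peak near a start site, with a height of 254 and scores of 238 and 122. GENCODE places coding and untranslated exon sequence under it, and the authors' annotation of the KLF3 replicate 1 call is 5′ UTR. Its ΔDL height was 76.1, from 8 tags, a difference of −1.74 (interval −3.18 to −0.83). Its DBD height was 19.7, from 2 tags, a difference of −3.69 (interval −7.42 to −2.43).

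**Figure D2:**
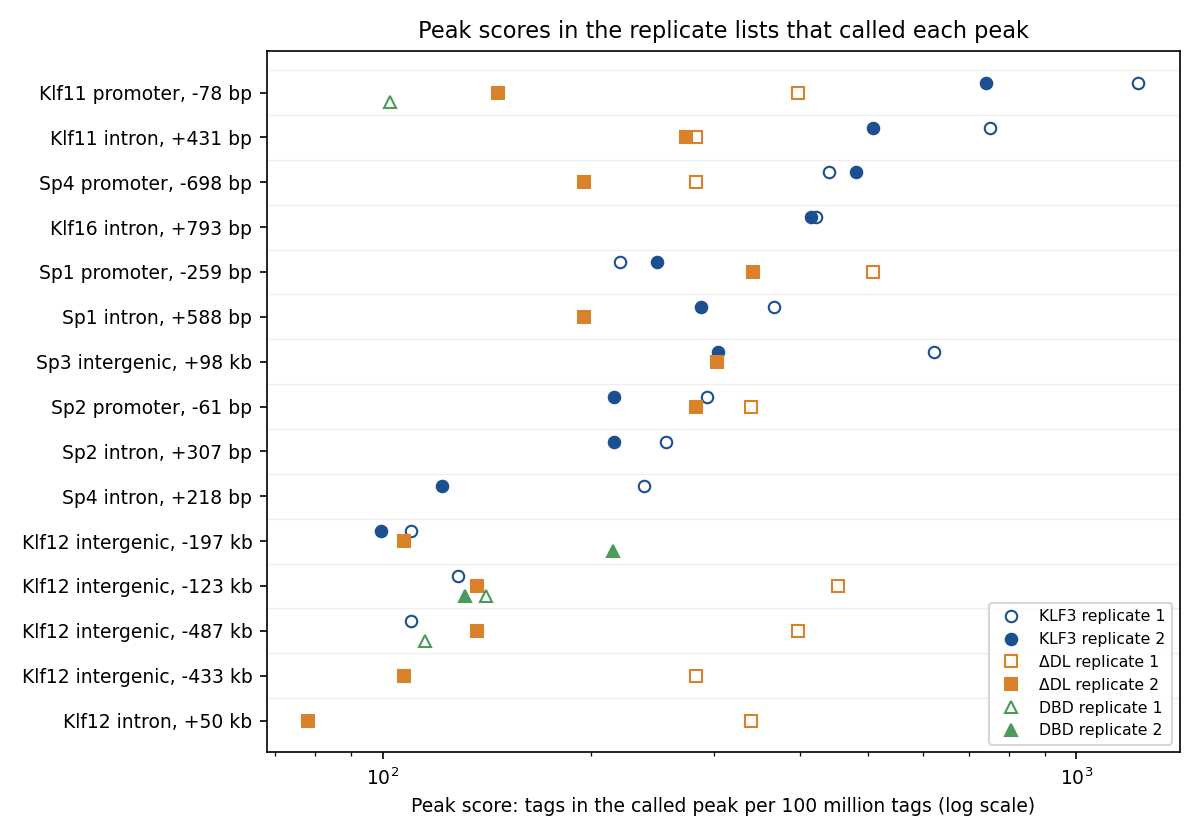
Peak scores in the replicate lists at the 15 peaks, as tags in the called peak per 100 M tags on a log axis, with replicate 1 as open and replicate 2 as filled symbols for KLF3 (circles), ΔDL (squares) and DBD (triangles). A missing symbol means that the list did not call the peak, not a score of 0. The KLF3 scores lie above the ΔDL scores at both Klf11 peaks and the Sp4 promoter, and below them at the Sp1 promoter. No ΔDL replicate 1 score can lie below 226.6.

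Sp3 encodes the closest relative of Sp1, which activates or represses depending on the promoter. Its only peak in the table lay at chr2:72719530-72719930, +97608 bp from the assigned TSS and downstream of the gene. KLF3 scores were 623 and 304 there, a 34-tag and a 55-tag call, and ΔDL was called in replicate 2 alone with a score of 303. The KLF3 height of 505 compared with 440 in ΔDL cells and 38.9 in DBD cells. The ΔDL difference was −0.20 (interval −0.72 to 0.27) and the DBD difference −3.70 (interval −5.22 to −2.58). With 40.4% G+C and no core in 400 bp, this peak stood apart in sequence from the 9 peaks near start sites, which had 55.1% to 76.8% G+C, while its KLF3 height lay within their range.

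At the Sp3 promoter, as at Klf16, the KLF3 replicates called peaks that do not overlap. KLF3 replicate 1 called a peak of 14 tags at +9 bp with a score of 256.5. KLF3 replicate 2 called a peak of 57 tags at +237 bp with a score of 315. The authors annotated that call to the promoter of a different transcript from that of the replicate 1 call. KLF3 replicate 2 called another peak, of 24 tags, at −41 bp from a start site 1165 bp further upstream with a score of 133. ΔDL replicate 2 called peaks at both start sites with 15 and 10 tags, and ΔDL replicate 1 called none. The DBD lists held no call there. All 3 KLF3 calls held a core, and the stretch nearest to each centre is shown.
Sp3 promoter, KLF3 replicate 1, chr2:72817299-72817328 (+): tccgtccggatcCCACCCgggagggcgcgc
Sp3 promoter, KLF3 replicate 2, chr2:72817086-72817115 (−): ccctctctgaacCCGCCCatcgcgggtagg
Sp3 upstream start site, KLF3 replicate 2, chr2:72818522-72818551 (+): cgcccggaagttCCGCCCctcttcccggct

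Klf16 and Sp3 were thus 2 of the 6 genes of the group that had a promoter call in both KLF3 replicate lists, and had no promoter peak listed for KLF3 in the table. Over all genes with such calls, 8.05% (346 of 4296) lacked a promoter peak listed for KLF3. With Klf16 and Sp3 counted, 6 of the 8 genes had KLF3 calls in both replicates within 1 kb of a start site, and the exceptions were Klf12 and Klf15.

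**Figure D3:**
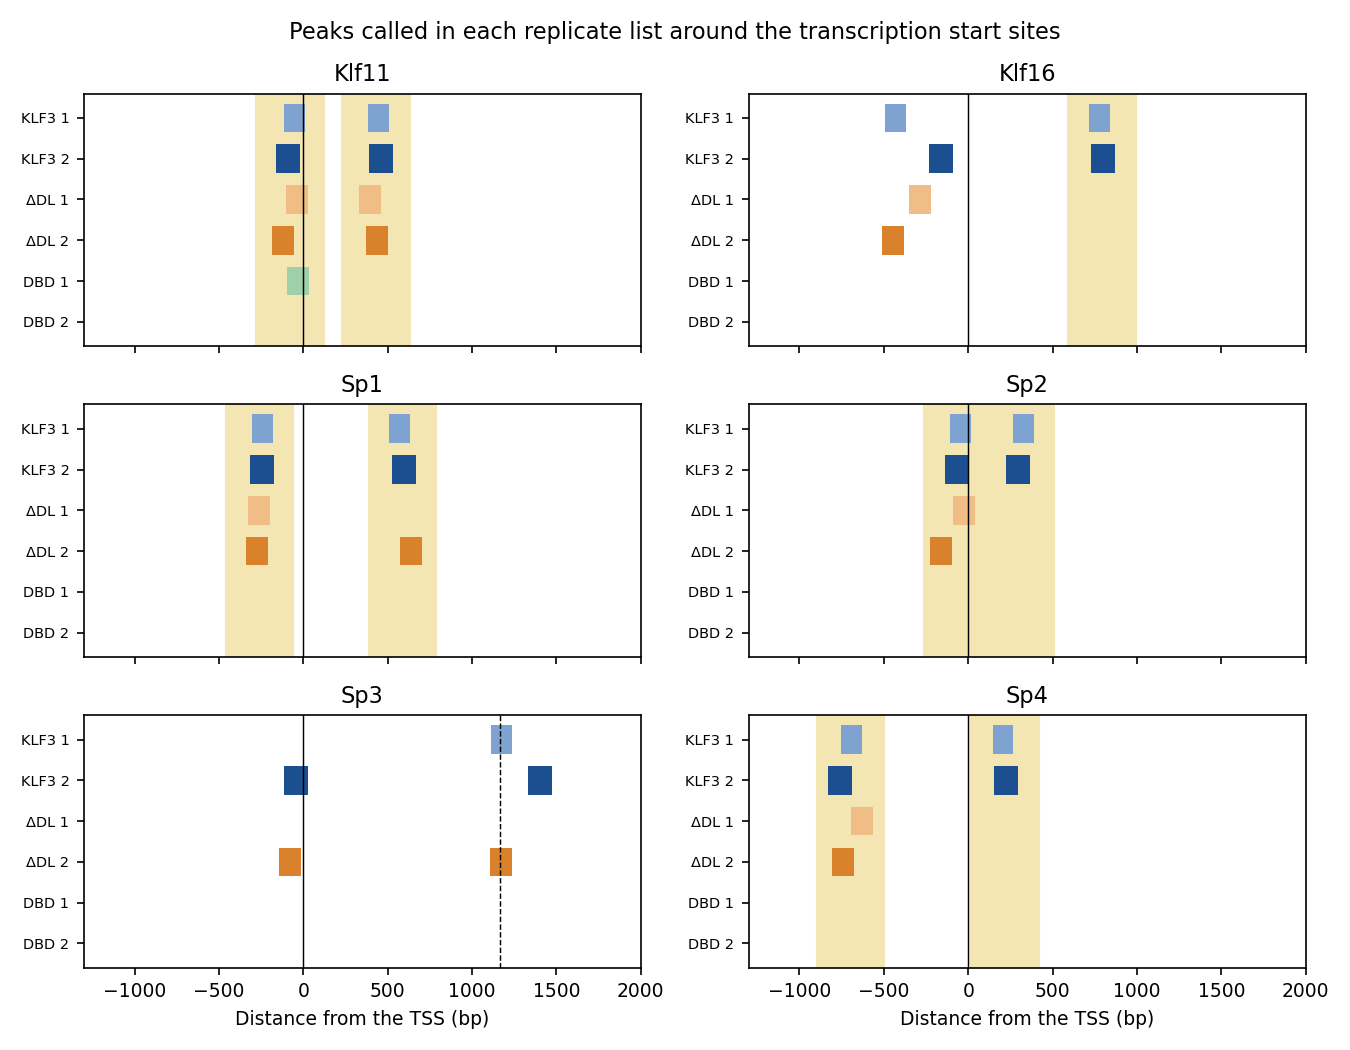
Peaks called in each replicate list around the start sites of 6 genes, against the distance from the TSS in bp along the gene, with replicate 1 in light and replicate 2 in dark colours. Yellow bands are the 400 bp peaks of the table, and the dashed line in the Sp3 panel is the start site 1165 bp downstream. The KLF3 calls of the replicates coincide at Klf11, Sp1, Sp2 and Sp4 and do not overlap at the promoters of Klf16 and Sp3.

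Klf12 encodes a repressor that, like KLF3, binds CtBP. It had the most peaks of the group and none near its promoter. The 5 peaks lay in intron 2 at +49659 bp and upstream at −122508, −197227, −432998 and −487102 bp. The 4 upstream peaks lay 52818 to 71460 bp from the nearest start site in GENCODE, which was never that of Klf12, so their assignment to Klf12 rests on the nearest RefSeq gene. Only the peak at −197227 bp was listed for KLF3. The other 4 entered the table through the ΔDL or DBD lists, so that a lower KLF3 height at them is in part set by how they were listed.

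The Klf12 peak at −122508 bp, chr14:100671323-100671723, was the only one of the 15 that the table listed for DBD. KLF3 was called in replicate 1 alone, with a score of 128 from 7 tags. The ΔDL scores were 453 and 137, from 8 and 14 tags, and the DBD scores 141 and 131, from 11 tags each. The other 4 scores lay between 128 and 141. ΔDL replicate 1 stood apart, as any call in that list had to, since its lowest score was 226.6. The KLF3 height was 79.3, the ΔDL height 171 and the DBD height 149, a difference from KLF3 of 1.11 for ΔDL (interval 0.14 to 2.13) and 0.91 for DBD (interval −0.06 to 1.87).

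At −197227 bp, chr14:100746042-100746442, KLF3 was called with scores of 110 and 99.5, from 6 and 18 tags, ΔDL in replicate 2 with 107.5 and DBD in replicate 2 with 215. The heights were 127, 135 and 190, and differed from KLF3 by 0.09 for ΔDL, or −0.97 after scaling, and by 0.58 for DBD (interval −0.20 to 1.38). DBD was thus the highest of the constructs at this peak, by a margin that counting error covers. At −432998 bp, chr14:100981813-100982213, ΔDL alone was called, with 283 and 107.5, and the heights were 44.9, 124 and 62.2. The ΔDL difference there, 1.46 (interval 0.19 to 2.80), was the largest rise among the 15 peaks and rests on 10 KLF3 and 14 ΔDL tags.

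At −487102 bp, chr14:101035917-101036317, KLF3 was called in replicate 1 with 110, ΔDL with 396.5 and 137, and DBD in replicate 1 with 115. The heights were 76.6, 186 and 122, and the ΔDL difference was 1.28 (interval 0.29 to 2.30). The intron 2 peak, chr14:100499156-100499556, was called for ΔDL alone with 340 and 78.2 and had heights of 39.9, 94.4 and 42.2. Its ΔDL difference of 1.24 had an interval from −0.14 to 2.72. After scaling, the ΔDL differences were 0.05 at −122508 bp, 0.4 at −432998 bp, 0.22 at −487102 bp and 0.18 at the intron 2 peak. Over all intergenic peaks listed for ΔDL and not for KLF3, the median ΔDL difference before scaling was 1.11. Every Klf12 peak rested on 30 tags or fewer for each construct.

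Klf15, a regulator of gluconeogenesis and of lipid and amino acid metabolism, had no peak in the table. It was called in KLF3 replicate 1 alone, with a pair of peaks in exon 2 at +4216 and +4607 bp, of 6 and 8 tags and scores of 110 and 147. The other 5 lists held no peak of Klf15.

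At 5 of the 15 peaks the ΔDL height was lower than the KLF3 height by at least 2-fold, against 14.8% of all peaks in the table. These were both Klf11 peaks, both Sp4 peaks and the Klf16 intron peak. All 5 were listed for KLF3, so a lower ΔDL height at them is in part set by how they were listed. Of the 3293 peaks of the table that were lower in this way 3283 were listed for KLF3, and among the 11 members listed for KLF3 the count was 5, against 23.3%. By region it was 2 of 4 promoter peaks, against 35.0% of the promoter peaks listed for KLF3, and 3 of 5 intron peaks, against 20.0%. These 5 intron peaks lay from +218 to +793 bp from a TSS, whereas the 20.0% covers introns at any distance. The share among intron peaks that near a TSS was not computed. ΔDL was at least 2-fold higher at 4 of the 15 peaks, all at Klf12, against 28.8% of all peaks. Of the 5 intergenic peaks 3 were higher in this way, against 39.4% of all intergenic peaks, and the 3 intergenic peaks listed for ΔDL and not for KLF3 were all higher, against 62.6%. With so few peaks these shares are counts beside their background, and no test was made of the group.

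The median ΔDL difference over the 15 peaks was −0.20, compared with 0.42 over all peaks, and over the 11 listed for KLF3 it was −0.98, compared with −0.35. After scaling to equal medians, which lowered every ΔDL difference by 1.06, 8 of 15 peaks were at least 2-fold lower, against 42.9% of all peaks, and none was higher by this limit. The counting interval of the ΔDL difference lay below 0 at 7 peaks, above 0 at 3 and included 0 at 5.

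**Figure D4:**
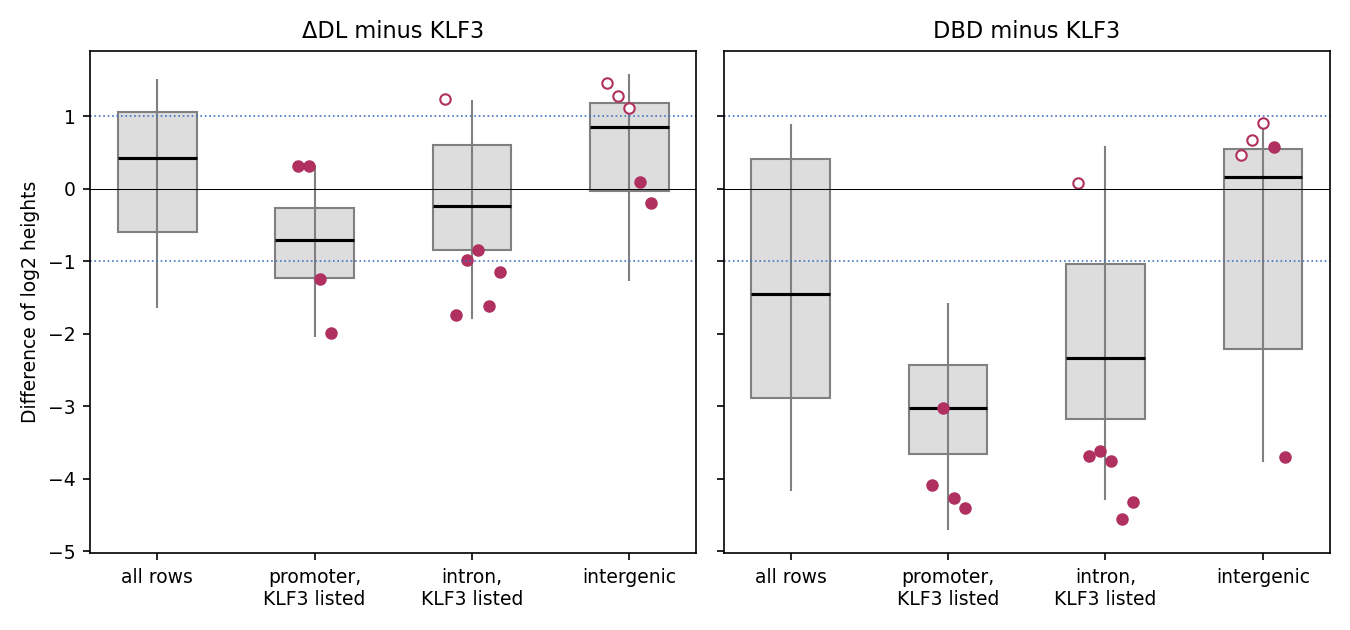
Differences of log2 heights from KLF3 for ΔDL (left) and DBD (right). Boxes show the median and quartiles over peaks of the table and grey lines their 5th to 95th percentiles, points are the 15 peaks placed by region (filled where listed for KLF3, open where not), and dotted lines mark 2-fold. ΔDL lies below −1 at 5 points and above 1 at 4, and DBD lies below −3 at 10 points and above 0 at the 5 Klf12 points, of which the intron 2 point is below 0 after scaling.

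At 10 of the 15 peaks the DBD height was lower than the KLF3 height by at least 2-fold, against 52.6% of all peaks, and it was higher by this limit at none, against 3.27%. The 10 peaks were the 9 near start sites and the Sp3 peak. All 10 were listed for KLF3 and none for DBD, so a lower DBD height at them is in part set by how they were listed. Among the 11 peaks listed for KLF3 the count was 10, against 79.2%, and it was 4 of 4 promoter peaks against 98.5% and 5 of 5 intron peaks against 75.2%. The 75.2% covers introns at any distance from a TSS, whereas these 5 intron peaks lay within 1 kb of one. Nearly all promoter peaks listed for KLF3 were lower by this limit, so the count of members among them is close to the background. The median DBD difference over the 4 promoter peaks was −4.18, compared with −3.02 over all promoter peaks listed for KLF3, and over the 11 peaks listed for KLF3 it was −3.76, compared with −2.54. The median DBD height of the 11 was 38.9. It was 50.2 over all peaks listed for KLF3 and 42.2 over the promoter peaks among them. The median KLF3 height of the 11 was 505, compared with 241 and 324. The 11 peaks thus differed from these backgrounds more in KLF3 height than in DBD height. At the 10 peaks DBD heights were between 19.7 and 63.6, where uniform coverage would give 15.1. They rested on 2 to 10 tags each, and the counting intervals given with each peak are wide. At the 5 Klf12 peaks the DBD differences from KLF3 ran from 0.08 to 0.91, and all 5 counting intervals included 0. After scaling the difference was −0.34 at the intron 2 peak and stayed above 0 at the others. The median DBD difference over all intergenic peaks listed for ΔDL and not for KLF3 was 0.45, and the 3 Klf12 peaks of this kind had 0.47, 0.67 and 0.91.

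The replicate lists allow the same comparison with replicate error where all 4 KLF3 and ΔDL lists called a peak, which was so at 5 member peaks and at 4892 peaks of the table. Both KLF3 scores were above both ΔDL scores at 3 of the 5, the Klf11 peaks and the Sp4 promoter, against 7.20% of the 4892. Both ΔDL scores were above both KLF3 scores at 1, the Sp1 promoter, against 27.6%. At the Sp2 promoter the scores overlapped. The floor of ΔDL replicate 1 scores was 226.6, compared with 91.6 and 71.9 in the KLF3 lists. A peak with a KLF3 score below 226.6 could therefore not have both KLF3 scores above both ΔDL scores. This held at the Sp1 and Sp2 promoters, with KLF3 scores of 220 and 216. How many of the 4892 peaks it held for was not counted, so the 7.20% and 27.6% are not a like background for the 5.

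KLF3 was called in both replicates at 11 of the 15 peaks (64.1% of all peaks), ΔDL at 9 (55.9%) and DBD at 1 (22.4%). Of the 11 peaks listed for KLF3, 3 had no ΔDL call in any replicate (24.3% of all such peaks), namely Klf16 intron 1, Sp2 intron 1 and the Sp4 peak at +218 bp. No DBD replicate called 11 of the 15 peaks (63.9% of all peaks), and among the 11 peaks listed for KLF3 this was so at 9 (77.9%). The numbers of peaks named for the 8 genes in a replicate list were 22 and 15 for KLF3 (18.5 ± 4.95, SD, n = 2), 13 and 19 in the ΔDL lists (16 ± 4.24), and 3 in either DBD list. The difference between KLF3 and ΔDL was within the spread of the replicates (two-sided exact permutation test, n = 2 per group, p = 0.667). The DBD lists were shorter, with 9156 and 8105 peaks compared with 26772 and 23872 for KLF3. As shares of their lists the member peaks made up 0.0822% and 0.0628% for KLF3 and 0.0328% and 0.0370% for DBD. Neither the numbers nor the shares of KLF3 and DBD overlapped, and for both p = 0.333 is the smallest value that an exact permutation test of 2 lists against 2 can give.

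Together these lists held 75 peaks named for the 8 genes, of which 50 overlapped a peak of the table and 25 did not. Joined where they lay within 500 bp of each other, they formed 27 loci, 13 with a peak in the table and 14 without. Of those without, 8 were called in 1 list and 6 in at least 2. The 6 included the Klf16 promoter, both Sp3 start sites and an Sp3 locus called in 1 KLF3 and 1 ΔDL list. The others were a pair of sites upstream of Klf12 at −223040 and −524006 bp from its TSS. At the former, KLF3 replicate 1, ΔDL replicate 1 and DBD replicate 2 each called a peak, with 6, 5 and 10 tags.

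The rest of the KLF and Sp family had 45 peaks in the table, from 12 of 18 genes, of which 6 were promoter peaks and 31 were listed for KLF3. ΔDL was at least 2-fold lower at 5 of the 45 (11.1%) and higher at 18 (40%), and DBD was lower at 25 (55.6%) and higher at 1. The median KLF3 height of the 45 was 197, compared with 437 over the 15 peaks described here. No test of this difference was made.

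In base composition the 15 peaks ranged from 29.7% to 76.8% G+C, with a median of 61.1%, compared with 44.9% over all peaks. The Klf12 peaks lay between 29.7% and 43.9%. The whole 400 bp held a core in 11 of 15 peaks, compared with 60.0% of all peaks, and the flanks from 400 to 500 bp away held one in 9 of 30 windows, compared with 16.8%. CACCC in the central 100 bp was in 3 of 15 peaks, compared with 26.9%. The AP-1 motif TGACTCA, on either strand within 400 bp, was in none of the 15 and in 16.5% of all peaks. CCAAT, the motif bound by NF-Y, was in the central 100 bp of 5 of the 15 peaks, the promoter peaks of Klf11, Sp1 and Sp2 and a pair of Klf12 peaks, compared with 14.7% of all peaks. The promoter peaks listed for KLF3 had a median G+C of 63.8%, a core in 97.6% of them within 400 bp and in 31.6% of flanks. Among these promoter peaks CACCC was in 35.9%, TGACTCA within 400 bp in 4.81% and CCAAT in 17.1%. In RefSeq promoter sequences of build GRCm38, each 300 bp long around a start, 10 promoters matched 7 of the 8 genes, and 9 of the 10 held a core, compared with 62.2% of 32851 promoters. The promoters of Klf12 and Klf15, which had no KLF3 promoter call, each held 1 core.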

How the data were processed

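Peaks of V5-tagged KLF3, ΔDL and DBD in MEFs were analysed from the table of all peaks, the 6 lists of single replicates and the 3 merged lists. The authors aligned 50 bp reads to mm9 (Bowtie2 2.0.0, SAMtools 0.1.18 and FastQC 0.10.1 in the submitters' processing notes) and called and annotated peaks with HOMER 4.1. The heights are log2 values that the authors made from both replicates combined. The scores are a signal that the authors scaled to tags per 100 M. The G+C content is a deposited fraction. Each deposited record covers both replicates, and the lists name the replicate.

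Tags behind a value were taken from the step between scores or heights. HOMER adds a random offset of less than 1 tag to a log height, so the same interval differs between files by a median of 0.28 to 0.32 tags. Peaks overlapped when they shared at least 1 bp. No count model could be fitted, since the files give no count for a replicate at a site that it did not call. With 1 combined height per construct, called means at least 2-fold. The code was tested on simulated data.

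Every gene of the group is named, with its highest, promoter, at least 2-fold changed and DBD-listed peaks in full, and the 5 promoter peaks nearest in the 3 log2 heights to the highest peak. The members and lists were chosen with earlier results of these data known. Alternatives were equal medians over shared peaks, peaks listed for KLF3, peaks within 10 kb of a TSS, other fold limits, other windows, other list lengths and leaving out a replicate. Python 3.11.15, numpy 2.4.6, pandas 2.3.3 and scipy 1.17.1 were used.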

Additional observations from a re-analysis of the deposited data

How the results depend on the processing

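Of the 39 alternative values for the counts and medians, 28 were classed as the same, 7 as moved in size and 4 as reversed in sign. Counts and medians were classed as the same when close to the main value. Only counts were compared, so cores in 9 of 30 flank windows were classed as the same as 9 of 15 peaks, despite the lower rate. The counts of peaks at least 2-fold lower in ΔDL or DBD could not change when limited to peaks listed for KLF3, since all were listed for it. Differences in member peaks between lists were classed by direction alone, so their size could change. The difference in member peaks between KLF3 and ΔDL lists, 2.5, was 4.5 in the upper 50% of each list and 5.5 within 10 kb of a TSS. Scaling to equal medians over shared peaks raised the number of peaks at least 2-fold lower in ΔDL from 5 to 8, and a 4-fold limit left 0. The median ΔDL difference, −0.20 over 15 peaks, was −1.26 after scaling, −0.98 over peaks listed for KLF3 and −1.15 within 10 kb of a TSS. Without a replicate it lay between −0.28, from replicate 2 at 8 peaks, and 0.21, from replicate 1 at 7 peaks, a change of sign. With the replicate numbers as a block, over the 5 peaks called in all 4 lists, it was −0.97. The median DBD difference without a replicate was 0.068 at 3 peaks and 1.11 at 1, both reversed, since only peaks called for DBD enter and most were not called. No paired analysis was possible for that median because no member peak was called in all 4 KLF3 and DBD lists. The KLF3 to ΔDL difference in member peaks ran from −4 to 9 without a replicate. With the block the permutation p was 1 for ΔDL and 0.5 for DBD. CACCC alone was in 3 peaks rather than 9. Single peaks changed sign on scaling at the Klf12 intron (DBD, −0.34), Klf12 at −197227 bp (ΔDL, −0.97) and the promoters of Sp1 (−0.75) and Sp2 (−0.74).

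Heights recomputed from the merged lists, where these hold the same interval, shifted 20 differences of members by at most 0.1 and changed no sign. This alternative, the single-replicate values at each peak and the numbers of member peaks without a replicate were chosen after seeing the data. The depth limits the DBD values at peaks near start sites, which rest on 2 to 10 tags, and the Klf12 peaks, which rest on 6 to 30.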
